A study of Homo sapiens with 6 samples.

Results

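Genes of DNA repair and of the DNA damage checkpoint were followed in THP1 cells, an established human line of acute monocytic leukemia, after short exposure to Withaferin A (WFA). The 45 genes were taken by symbol from the 26485 genes of the count table, as 18 genes of homologous recombination, 10 of the Fanconi anemia pathway, 2 of mismatch repair, 6 of end joining and 9 of damage sensing and the checkpoint. All 45 were listed, and all 45 were among the 12854 genes with enough reads to be tested. WFA is a steroidal lactone of the plant Withania somnifera, studied here as a compound that lowers the activity of the transcription factor c-MYB. Cells received WFA or its solvent DMSO for 6 h, and 3 libraries were sequenced per group. The concentration of WFA is 1 μM in the methods of the study and 1 mM in the sample labels, and the value of the methods is taken here. A single cell line was used at 1 dose and 1 time, and the 3 replicates were independent experiments with it. The edgeR p-values weigh the groups against the spread of libraries within a group, estimated in part from all genes. They do not cover other lines, doses or times.

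DNA breaks are sensed by the kinase ATM and stretches of single-stranded DNA by the kinase ATR, which act through CHEK2 and CHEK1 to hold the cell cycle while repair goes on. Breaks that run through both strands are mended either by homologous recombination, which copies the intact sister chromatid and works in S and G2 phase, or by end joining, which ligates the ends directly at any phase. The Fanconi anemia pathway removes crosslinks between the strands and feeds into recombination, and mismatch repair corrects wrongly paired bases left by replication. Many of these genes are transcribed most strongly in cells that are preparing for or passing through S phase.

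The libraries held between 11006035 and 13872810 counts, and the 45 genes took from 0.610% to 0.681% of the counts in the DMSO libraries and from 0.431% to 0.483% in the WFA libraries. Within a group, any 2 libraries were farther apart than sampling noise allows (chi-square per gene 5.98 to 11.1). Each library was counted as a sample of its own because the replicates were independent experiments, which this distance alone does not show. All 14 markers of THP1 and related monocytic cells were detected. Their summed level was 3819 to 4655 CPM (counts scaled to a common library size) in DMSO and 3440 to 4587 CPM in WFA. By the test used below 7 of the 14 were lower and 1 was higher, against 24.7% lower and 25.8% higher among all genes tested. Of the 10 erythroid and platelet markers, 7 had no count in any library. The 10 lymphoid markers summed to 8.41 to 11.9 CPM in DMSO and 10.9 to 15.8 CPM in WFA. The 10 epithelial and stromal markers summed to 2.50 to 2.60 CPM in DMSO and 11.02 to 14.8 CPM in WFA, where most of the gain was COL1A1, with 3, 4 and 10 counts in DMSO and 107, 106 and 135 counts in WFA, while its partner COL1A2 had no count in any library.

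Transcripts of the 45 listed repair and checkpoint genes were mostly lower after 6 h of WFA. With edgeR's quasi-likelihood test and an adjusted p under 0.05, 30 of the 45 genes were lower, 1 was higher and 14 were not called. Among all genes tested the same threshold called 24.7% lower, 25.8% higher and 50.5% in either direction, against 66.7% of these genes lower. Their median log2 fold change was -0.44, with medians of -0.36, -0.45 and -0.51 in the 3 experiments taken one at a time, whereas the median over all genes tested was 0.02. In 32 of the 45 genes every WFA library lay below every DMSO library, which held for 28.5% of all genes tested, and in 2 genes every WFA library lay above, against 29.6% of all genes tested. Within each of the 3 experiments the WFA library was below its DMSO library for 40 of the 45 genes, which held for 36.1% of all genes tested. A fall of 0.5 or more on the log2 scale that also passed the test was seen in 20 of the 45 genes and in 15.5% of all genes tested. In bulk RNA a lower share of cells in the phase that uses these genes and less RNA per cell cannot be told apart.

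**Figure D1:**
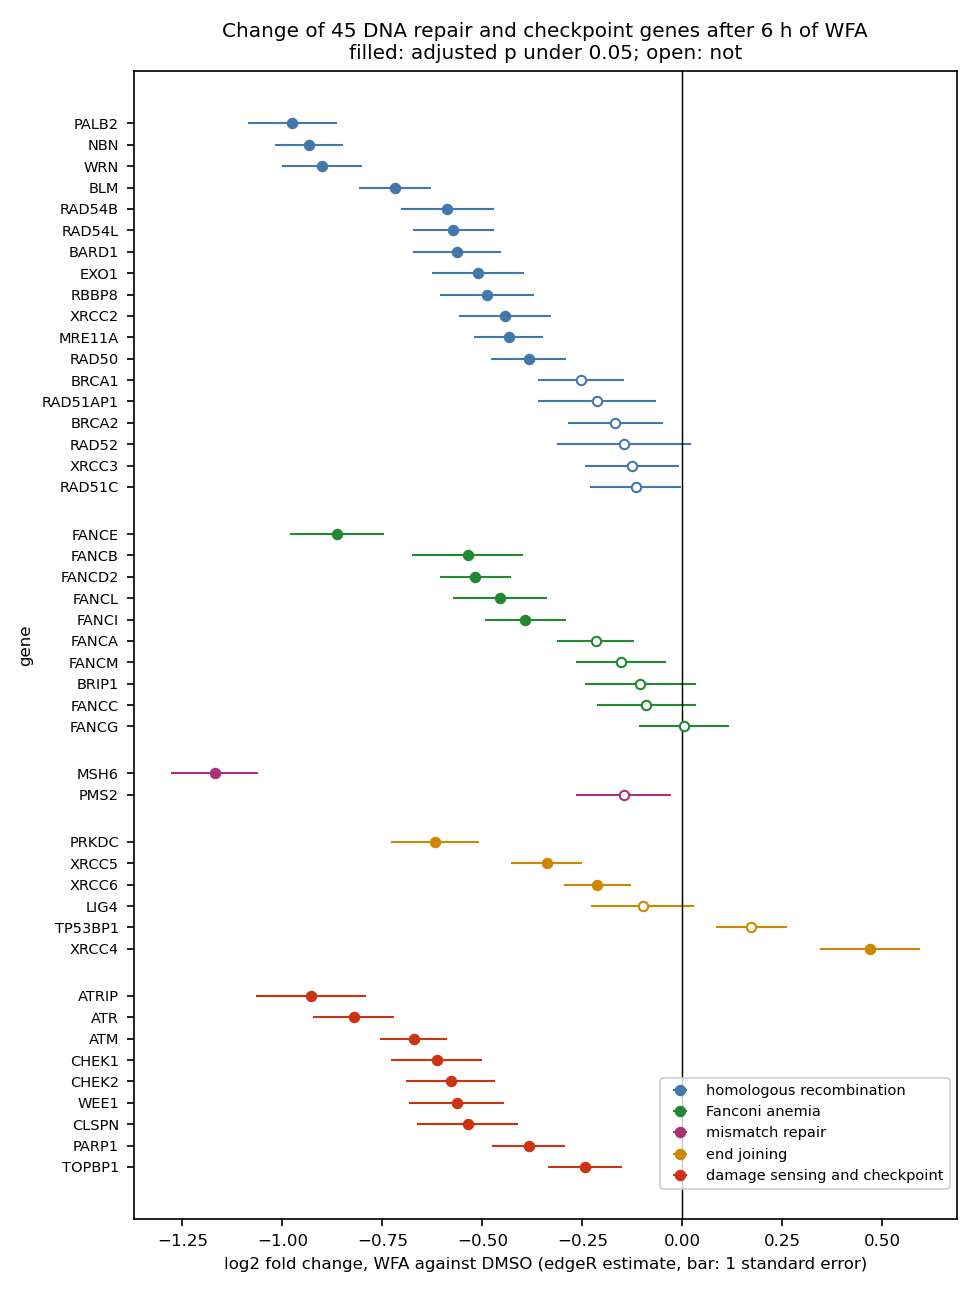
Log2 fold change (x axis, WFA against DMSO) of the 45 repair and checkpoint genes, grouped by pathway on the y axis. Bars are 1 standard error, derived from the F statistic of the edgeR test, and the call of each gene is as in the key. All 9 damage sensing and checkpoint genes lie left of 0, MSH6 is lowest at -1.17 and XRCC4, at 0.47, is the 1 gene called higher.

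Taken by pathway, the fall was counted as follows, beside 24.7% lower and 25.8% higher among all genes tested. Damage sensing and checkpoint genes fell in 9 of 9 cases, with a median log2 fold change of -0.58. Homologous recombination followed with 12 of 18 genes lower and a median of -0.47, and the Fanconi anemia pathway with 5 of 10 lower and a median of -0.30. End joining had 3 lower and 1 higher of 6 genes and a median of -0.16. In mismatch repair 1 of the 2 genes was lower. The pathways were not compared by a test, and these counts and medians describe the genes listed.

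The upper tier of the checkpoint fell on both of its arms, and a processed pseudogene on the opposite strand covers 16.4% of the exonic bases of ATR. ATM, the kinase that answers to broken DNA ends, measured 106, 113 and 118 CPM in the DMSO replicates and 68.9, 72.5 and 69.8 CPM in the WFA replicates. ATR, the kinase that answers to single-stranded DNA at stalled forks, measured 66.0, 58.9 and 74.0 CPM in DMSO and 38.1, 36.2 and 38.2 CPM in WFA. For both kinases the groups were well apart, and the WFA libraries lay closer together than the DMSO libraries. ATM fell from 112 ± 6.13 to 70.4 ± 1.85 CPM (SD, n = 3 per group), or by 0.67 ± 0.08 on the log2 scale (SE, edgeR adjusted p = 9.89e-06). ATR fell from 66.3 ± 7.54 to 37.5 ± 1.08 CPM, or by 0.82 ± 0.10 on the log2 scale (edgeR adjusted p = 9.46e-06). ATRIP, the subunit that brings ATR to coated single-stranded DNA, was the most weakly counted gene of the arm, with 16.2, 15.6 and 18.4 CPM in DMSO and 9.31, 8.70 and 8.28 CPM in WFA. All of its WFA libraries were below its DMSO libraries, and the fall was -0.93 ± 0.14 on the log2 scale (edgeR adjusted p = 5.56e-05). TREX1, a nuclease gene on the same strand that covers 27.9% of the exonic bases of ATRIP, went from 6.64 to 14.7 CPM (log2 fold change 1.14, edgeR adjusted p = 3.92e-05), and how reads on the shared bases were assigned is not given in the sources used here.

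The effector kinases fell with their activators. CHEK1, the kinase activated by ATR, measured 92.4, 81.5 and 90.6 CPM in DMSO and 67.0, 47.2 and 58.6 CPM in WFA, with no overlap of the groups and a log2 change of -0.61 ± 0.11 (edgeR adjusted p = 0.000398). CHEK2, the kinase activated by ATM, measured 35.5, 37.2 and 31.2 CPM in DMSO and 22, 24.1 and 23.4 CPM in WFA, and its log2 fold change was -0.58 ± 0.11 (edgeR adjusted p = 0.000478). CHEK2 has 4 pseudogene copies in the annotation, so its reads may be shared with them. WEE1, which holds back entry into mitosis by phosphorylating the cyclin-dependent kinase, measured 69.8, 62.5 and 78.4 CPM in DMSO and 47.8, 40.03 and 54.8 CPM in WFA. In both groups replicate 2 was the lowest and replicate 3 the highest, and the groups did not overlap (log2 fold change -0.56 ± 0.12, edgeR adjusted p = 0.00104). CLSPN, the adaptor through which ATR reaches CHEK1, went from 174, 145 and 161 CPM to 136, 90.1 and 105 CPM. Replicate 1 was highest in both groups of CLSPN, and the log2 fold change was -0.54 ± 0.13 (edgeR adjusted p = 0.00233). PARP1, which builds poly(ADP-ribose) at breaks and has 2 processed pseudogene copies, fell by 23.4% from its much higher level of 684 ± 32.9 CPM (log2 fold change -0.38 ± 0.09, edgeR adjusted p = 0.00257). TOPBP1, the activator of ATR, had the smallest fall of the 9 genes, -0.24 ± 0.09 (edgeR adjusted p = 0.0381). Its call was lost without DMSO replicate 1 (edgeR adjusted p = 0.0895), without DMSO replicate 3 (0.114) and without WFA replicate 2 (0.17).

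**Figure D2:**
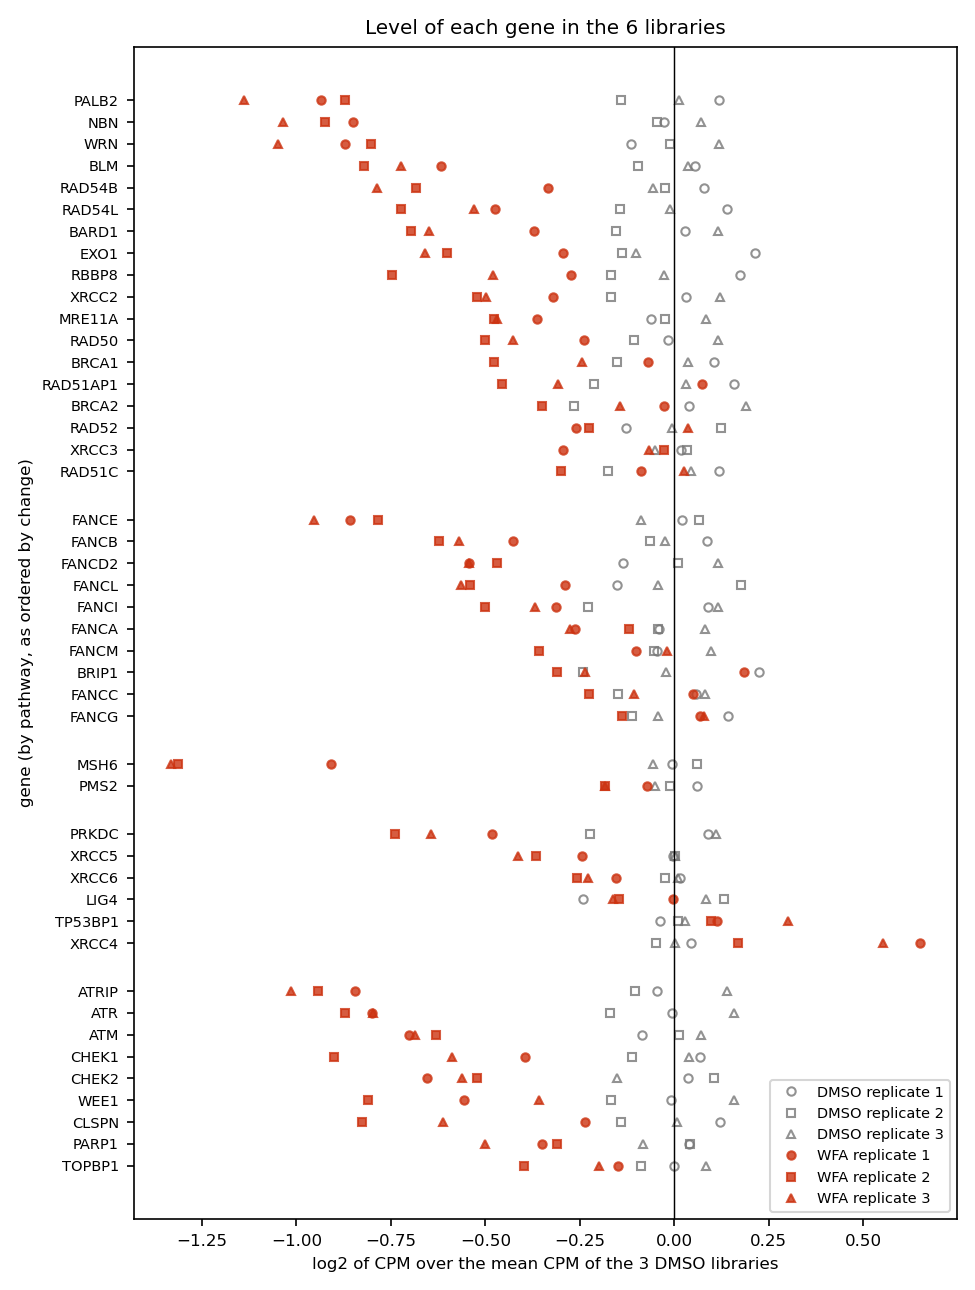
Level of each repair and checkpoint gene in each of the 6 libraries, with genes in rows by pathway and libraries marked by group and replicate number. The value drawn is the log2 of the CPM relative to the mean CPM of the 3 DMSO libraries. The 3 WFA libraries are low for most rows, and XRCC4 and TP53BP1 are high in all 3 WFA libraries. In rows such as FANCG and BRIP1 the 2 groups overlap.

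In homologous recombination the genes that sense and open a break fell as a group of 3. MRE11A (the nuclease), RAD50 (the clamp that tethers the ends) and NBN (the subunit that recruits ATM) form the MRN complex. NBN measured 189, 187 and 203 CPM in DMSO and 107, 102 and 94.4 CPM in WFA, a fall of 47.6% with a log2 change of -0.93 ± 0.09 (edgeR adjusted p = 4.97e-07). The smaller fall of MRE11A took it from 76.3, 78.3 and 84.4 CPM to 61.9, 57.3 and 57.5 CPM (log2 fold change -0.43 ± 0.09, edgeR adjusted p = 0.000721). RAD50 went from 162, 152 and 177 CPM to 138, 115 and 122 CPM (log2 fold change -0.38 ± 0.09, edgeR adjusted p = 0.00324). In all 3 genes every WFA library was below every DMSO library. A readthrough gene on the same strand covers 79.7% of the exonic bases of RAD50, and MRE11A has 1 processed pseudogene copy. RBBP8, which encodes CtIP and starts resection together with MRE11A, had a log2 difference of -0.49 (edgeR adjusted p = 0.00301) and also has 1 processed pseudogene copy. EXO1, the exonuclease that extends resection, measured 139.9, 109.5 and 112 CPM in DMSO and 98.3, 79.5 and 76.3 CPM in WFA. Replicate 1 of EXO1 was the highest library in either group, the groups did not overlap, and the log2 difference was -0.51 ± 0.11 (edgeR adjusted p = 0.00179).

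BLM and WRN, 2 helicases that unwind recombination intermediates, were among the deepest falls of the 18 recombination genes. This did not hold for every listed helicase, as BRIP1, given below, was not called. BLM, the helicase lost in Bloom syndrome, measured 96.5, 86.9 and 95.2 CPM in DMSO and 60.5, 52.6 and 56.3 CPM in WFA. WRN, the helicase lost in Werner syndrome, measured 68.0, 73.1 and 79.9 CPM in DMSO and 40.3, 42.3 and 35.6 CPM in WFA. The lowest DMSO library of either gene stood clear of the highest WFA library. BLM had a log2 change of -0.72 ± 0.09 (edgeR adjusted p = 1.09e-05) and WRN of -0.90 ± 0.10 (edgeR adjusted p = 3.27e-06). The motor proteins RAD54L and RAD54B, which remodel the joint between the broken strand and its template, fell by like amounts, with log2 fold changes of -0.57 ± 0.10 and -0.59 ± 0.12 (edgeR adjusted p = 0.000253 and 0.000673). RAD54L went from 85.3, 70.1 and 76.9 CPM in DMSO to 55.8, 47.0 and 53.6 CPM in WFA, and RAD54B from 54.4, 50.6 and 49.6 CPM to 40.8, 32.1 and 29.9 CPM. LRRC41 on the opposite strand covers 25.1% of the exonic bases of RAD54L, and FSBP on the same strand covers 59.1% of those of RAD54B.

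In the complex of BRCA1, BARD1, PALB2 and BRCA2, which loads the recombinase onto resected DNA, 2 of the 4 genes were called lower. PALB2, the bridge between BRCA1 and BRCA2, measured 53.3, 44.6 and 49.6 CPM in DMSO and 25.7, 26.9 and 22.3 CPM in WFA. It fell by 49.1%, the deepest fall among the 18 recombination genes of the 45 (log2 fold change -0.97 ± 0.11, edgeR adjusted p = 4.01e-06). BARD1, the partner that forms a ubiquitin ligase with BRCA1, measured 61.0, 53.7 and 64.7 CPM in DMSO and 46.2, 36.9 and 38.2 CPM in WFA, and its log2 fold change was -0.56 ± 0.11 (edgeR adjusted p = 0.000589). BRCA1 itself measured 214, 179 and 204 CPM in DMSO and 190, 143 and 168 CPM in WFA, so that WFA replicate 1 lay above DMSO replicate 2. Its log2 fold change of -0.25 ± 0.11 was not called (edgeR adjusted p = 0.0606), but with the replicate number as a block it was -0.26 (edgeR adjusted p = 0.00283). It passed the threshold in 8 of 16 other settings, including those without DMSO replicate 2 (edgeR adjusted p = 0.024) and without WFA replicate 1 (0.0173), and the adjusted p over the 16 ran from 0.000163 to 0.258. BRCA2 measured 63.0, 51.0 and 69.99 CPM in DMSO and 60.1, 48.1 and 55.6 CPM in WFA, and the groups overlapped (log2 fold change -0.17 ± 0.12, edgeR adjusted p = 0.26). Its value ran from -0.30 without DMSO replicate 2, where it was called (edgeR adjusted p = 0.0498), to -0.07 without DMSO replicate 3 (0.698). It was also called with a correction for GC content and length together with the block (edgeR adjusted p = 0.00484), the lowest of the 16 settings.

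Of the 5 remaining recombination genes 1 fell. XRCC2, a paralog of the recombinase, went from 31.9 ± 3.22 to 23.5 ± 1.83 CPM (log2 fold change -0.44 ± 0.12, edgeR adjusted p = 0.00505). The other paralogs listed overlapped between the groups. RAD51C measured 45.1, 36.8 and 42.8 CPM in DMSO and 39.1, 33.7 and 42.3 CPM in WFA (log2 fold change -0.12), and XRCC3 measured 22.1, 22.3 and 21.1 CPM in DMSO and 17.8, 21.4 and 20.8 CPM in WFA (-0.13). KLC1, which rose by 0.39 on the log2 scale (edgeR adjusted p = 0.00177), covers 76.7% of the exonic bases of XRCC3 on the opposite strand, and the strand setting of the counting is not given in the sources used here. RAD51AP1, a cofactor of strand invasion, and RAD52, which anneals single strands, had log2 fold changes of -0.21 and -0.15 and were not called. Without WFA replicate 1 the value of RAD51AP1, which has 1 processed pseudogene copy, was -0.38 and was called (edgeR adjusted p = 0.0426), and over the 16 settings its adjusted p ran from 0.0426 to 0.609. RAD52 was the gene with the fewest reads, at 7.54 ± 0.66 CPM in DMSO and 6.82 ± 0.787 CPM in WFA.

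Within the Fanconi anemia pathway the pair that carries the signal fell, and so did some genes of the core complex that modifies it. FANCD2, which is ubiquitinated at a crosslink, measured 87.9, 97.3 and 105 CPM in DMSO and 66.2, 69.7 and 66.3 CPM in WFA, with a log2 change of -0.52 ± 0.09 (edgeR adjusted p = 0.000214). FANCI, its partner on DNA, measured 154, 124 and 157 CPM in DMSO and 117, 102 and 112 CPM in WFA, with a log2 change of -0.39 ± 0.10 (edgeR adjusted p = 0.00446). Neither gene had overlapping groups, and FANCD2 has 1 unprocessed pseudogene copy. Of the 7 core complex genes among the 45, 3 fell. FANCE, which links the core to FANCD2, measured 26.9, 27.7 and 24.9 CPM in DMSO and 14.6, 15.4 and 13.7 CPM in WFA, and its mean fell from 26.5 to 14.6 CPM (log2 fold change -0.86 ± 0.12, edgeR adjusted p = 2.39e-05). FANCB, a scaffold of the catalytic module, went from 14.2, 12.8 and 13.2 CPM to 9.97, 8.70 and 9.03 CPM (log2 fold change -0.54 ± 0.14, edgeR adjusted p = 0.00473). FANCL, the ubiquitin ligase itself, had a log2 change of -0.46 ± 0.12 (edgeR adjusted p = 0.00455), and VRK2 on the opposite strand covers 18.7% of its exonic bases.

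The other core genes among the 45 were not called. FANCG, an adaptor of the complex, measured 32.5, 27.2 and 28.6 CPM in DMSO and 30.9, 26.7 and 31.1 CPM in WFA, and its log2 fold change of 0.00 ± 0.11 was the nearest to 0 of all 45 genes. FANCC and FANCM, the latter a translocase that anchors the core at the damaged fork, had log2 fold changes of -0.09 and -0.15. FANCA, a core subunit, measured 45.1, 44.9 and 49.0 CPM in DMSO and 38.6, 42.6 and 38.2 CPM in WFA. Its groups did not overlap, yet the difference of -0.22 ± 0.10 was not called (edgeR adjusted p = 0.0726), and with the replicate number as a block the adjusted p was 0.0423 by edgeR. Over the 16 other settings it ran from 0.00209 to 0.202. ZNF276, which was lower at -0.34 (edgeR adjusted p = 0.0115), covers 23.6% of the exonic bases of FANCA on the opposite strand. BRIP1, the helicase that binds BRCA1, measured 56.5, 40.9 and 47.7 CPM in DMSO and 54.9, 39.0 and 41.0 CPM in WFA. The replicates of BRIP1 differed from each other by more than the groups did, and its log2 fold change was -0.11 ± 0.14, with differences of -0.04, -0.07 and -0.21 in the single experiments.

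MSH6, the mismatch recognition subunit (ENSG00000116062.14, plus strand of chromosome 2 at chr2:47695530-47810101 in GRCh38, GENCODE 29), had the deepest fall of the 45 genes. It measured 213, 223 and 206 CPM in the DMSO replicates and 114, 86.3 and 85.1 CPM in the WFA replicates. The highest WFA library was far below the lowest DMSO library, and the mean fell by 55.5%, from 214 ± 8.63 to 95.2 ± 16.5 CPM (log2 fold change -1.17 ± 0.11, edgeR adjusted p = 5.79e-07). FBXO11, on the opposite strand over 16.2% of the exonic bases of MSH6, was higher with WFA by 0.35 on the log2 scale (edgeR adjusted p = 0.00572). PMS2, the endonuclease subunit that acts after recognition, measured 19.1, 18.2 and 17.7 CPM in DMSO and 17.4, 16.1 and 16.1 CPM in WFA. All of its WFA libraries were lower, but by little, and it was not called (log2 fold change -0.15 ± 0.12, edgeR adjusted p = 0.325). PMS2 has 11 pseudogene copies on chromosome 7 in the annotation, and its counts are uncertain to the extent that reads were shared with them.

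In end joining 3 genes fell and 1 rose. XRCC4 (ENSG00000152422.15, plus strand of chromosome 5 at chr5:83077498-83353787), the scaffold that stabilizes the ligase LIG4, was the 1 gene of the 45 that rose. It measured 28.5, 26.7 and 27.7 CPM in DMSO and 43.3, 31.0 and 40.5 CPM in WFA, so the DMSO libraries were tightly grouped and WFA replicate 2 was nearest to them (log2 fold change 0.47 ± 0.12, edgeR adjusted p = 0.00542). LIG4 measured 18.2, 23.6 and 22.8 CPM in DMSO and 21.5, 19.5 and 19.3 CPM in WFA, with overlapping groups and a log2 fold change of -0.10 ± 0.13. TP53BP1, which shields broken ends from resection, measured 69.4, 71.6 and 72.6 CPM in DMSO and 77.0, 76.1 and 87.7 CPM in WFA. All WFA libraries of TP53BP1 were above all DMSO libraries, but the log2 fold change of 0.17 ± 0.09 was not called (edgeR adjusted p = 0.117). TUBGCP4, which was lower at -0.36 (edgeR adjusted p = 0.00558), covers 28.7% of the exonic bases of TP53BP1 on the opposite strand.

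The 3 subunits of the DNA-dependent protein kinase fell. PRKDC, the catalytic subunit, measured 1162, 936 and 1179 CPM in DMSO and 782, 655 and 699 CPM in WFA, and replicate 2 was the lowest in either group (log2 fold change -0.62 ± 0.11, edgeR adjusted p = 0.000268). XRCC5, the Ku80 subunit of the ring that slides onto broken ends, measured 877, 879 and 879 CPM in DMSO and 741, 682 and 660 CPM in WFA. The DMSO libraries of XRCC5 were almost identical, and the log2 fold change was -0.34 ± 0.09 (edgeR adjusted p = 0.00511). XRCC6, the Ku70 subunit, measured 569, 553 and 566 CPM in DMSO and 506, 471 and 481 CPM in WFA. Its groups did not overlap, and the fall of -0.21 ± 0.08 was close to the threshold (edgeR adjusted p = 0.0471) and lost its call when any 1 of the 6 libraries was left out (edgeR adjusted p = 0.0507 to 0.137). XRCC6 has 5 processed pseudogene copies.

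Levels per kilobase of transcript spanned a wide range among these genes. In DMSO the highest were XRCC5 at 234 CPM per kb, XRCC6 at 208 CPM per kb and PARP1 at 173 CPM per kb, followed by PRKDC at 80.9 CPM per kb. With WFA these 4 genes stood at 185, 179, 132 and 52.7 CPM per kb. The lowest were RAD52 at 2.78 and ATRIP at 3.65 CPM per kb in DMSO. Across the 45 genes the log2 fold change had Spearman correlations of -0.22 with the average level, -0.18 with transcript length, -0.03 with the span of the gene and 0.06 with GC content, given as a description over genes that share 6 libraries. The 45 genes were longer than most, with a median span of 73313 bp against 33155 bp for all genes tested, and lower in GC content, with a median of 42.2% against 48.2%.

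The balance between genes whose products work together was taken as the log2 ratio of their counts within each library. Of the 13 partner pairs compared, the one that shifted most was BRCA2 to PALB2, where the count ratio went from 1.24 in DMSO to 2.18 in WFA, a log2 shift of 0.82 with shifts of 0.64 to 0.98 in the single experiments. XRCC4 to LIG4 went from 1.29 to 1.89, a log2 shift of 0.55, and NBN to RAD50 went from 1.18 to 0.809, a log2 shift of -0.55. Smaller shifts without overlap of the groups were seen for BRCA1 to BARD1 (log2 shift 0.31), XRCC5 to XRCC6 (-0.13) and ATR to ATRIP (0.11, with shifts of 0.0033 to 0.20 in the single experiments). For each of these pairs an exact two-sided permutation test over libraries gave p = 0.1, the smallest value that 3 against 3 libraries allow, so none could pass 0.05, and how often the ratios of other gene pairs do not overlap was not examined. Ratios of the other 7 pairs overlapped between the groups. Among them were MRE11A to RAD50 (log2 shift -0.05, exact p = 0.5), RAD54L to RAD54B (0.03, exact p = 0.9), FANCD2 to FANCI (-0.13, exact p = 0.6) and ATM to CHEK2 (-0.10, exact p = 0.6). The exact test does not use the pairing by experiment. In the single experiments the shift was negative each time for MRE11A to RAD50, from -0.08 to -0.01, and for FANCD2 to FANCI, from -0.21 to -0.0051.

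**Figure D3:**
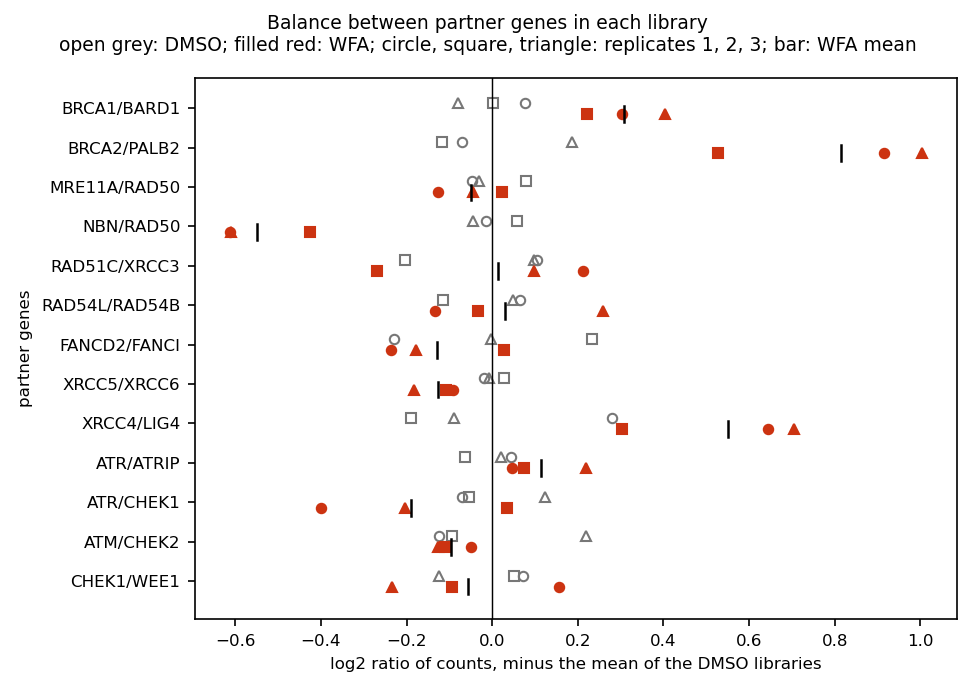
Log2 ratio of the counts of 13 pairs of partner genes in each library (x axis, after subtracting the mean of the DMSO libraries), with open grey symbols for DMSO, filled red symbols for WFA, symbol shape for the replicate number and a bar at the WFA mean. BRCA2/PALB2 and XRCC4/LIG4 lie right of 0 in all 3 WFA libraries, at means of 0.82 and 0.55, and NBN/RAD50 lies left at -0.55.

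Promoters of the genes, taken from RefSeq (GRCh38.p14) as the stretch from 250 bases before to 50 bases after an annotated start, were searched on both strands for short motifs. Of the 45 genes, 38 were matched to a promoter. The E2F motif, the site bound by factors that switch on S phase genes (TTTCCCGC, TTTCGCGC, TTTGCCGC or TTTGGCGC), was present in 10 of 38 genes, or 26.3%, against 3.99% of 27305 genes with a promoter. It was in 7 of the 23 matched genes that fell and in 3 of the other 15. The CCAAT motif was in 55.3% of the 38 genes against 39.7% of all genes, the core MYB motif AACNG in 86.8% against 80.5%, the E-box CACGTG in 7.89% against 8.77%, the cell cycle homology region TTTGAA in 7.89% against 18.2%, and the heat shock element GAANNTTC or TTCNNGAA in 10.5% against 16.2%. These letters describe the windows and do not show that a factor binds there. The 11 E2F matches are printed because the share of this motif stood farthest above that of all genes among the 6 motifs searched, each with up to 10 flanking bases, in the direction of the gene, with the motif in capitals. 
XRCC2, chr7:152676103-152676130, minus strand: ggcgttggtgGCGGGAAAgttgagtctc
EXO1, chr1:241848198-241848225, plus strand: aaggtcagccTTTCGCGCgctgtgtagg
FANCD2, chr3:10026425-10026452, plus strand: gtcgggcctgGCGGGAAAgtcgaaaact
MSH6, chr2:47783138-47783165, plus strand: tccccccagaTTTCCCGCcagcaggagc
CLSPN, chr1:35769966-35769993, minus strand: ctctggctggGCGGGAAAgcaagaacag
TOPBP1, chr3:133661931-133661958, minus strand: cgcgcggttgGCGCGAAAgtcggttccc
XRCC6, chr22:41621327-41621344, plus strand: tcgcttccctGCGCCAAA
FANCA, chr16:89816802-89816829, minus strand: ctacaccgcgGCGGCAAAgccaaacgca
FANCC, chr9:95317864-95317891, minus strand: cggggcttccGCGCGAAAccgggaacac
FANCC, chr9:95317738-95317765, minus strand: tcgtcggaatTTTCCCGCgacgccgcgg
PMS2, chr7:6009132-6009159, minus strand: gggaagtattTTTGCCGCcccgcccgga
In the first 6 of these genes the match began within 25 bases of an annotated start, and all 6 fell with WFA. In the other 4 genes it lay farther away, and 1 of the 4, XRCC6, fell. Of all 38 matched genes, 23 fell. This split by distance was noticed after the values were known and was not tested.

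Other genes of the same pathways were taken from lists of general knowledge, which do not share a member with the 45 genes. Across 7 lists of other repair and checkpoint genes, 47 of 133 tested genes (35.3%) were lower and 17 higher, with a median log2 fold change of -0.13. With total counts in place of scaling factors these counts were 55 and 10. The other recombination and Fanconi anemia genes had 10 lower and 4 higher of 39 and a median of -0.11, and 25.6% lower is close to the 24.7% of all genes tested. Among them DNA2, a nuclease and helicase of resection, fell by 1.04 on the log2 scale, USP1, which removes ubiquitin from FANCD2, by 0.73, and BRCC3, a deubiquitinase of the BRCA1-A complex, by 0.70, while BABAM1, a scaffold of the same complex, rose by 0.35. The other mismatch repair genes had 5 lower (62.5%) and 0 higher of 8, led by PMS1 at -1.06, RFC3 at -0.71 and MSH3 at -0.52. That list is mostly made up of subunit genes of RFC, the clamp loader that also serves replication. The other end joining genes had 4 lower and 1 higher of 11, or 36.4% lower against 24.7% of all genes tested. RIF1, which acts with TP53BP1, was at -0.62, and NHEJ1, which acts with XRCC4, was the 1 that rose, by 0.39.

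The other checkpoint genes moved in both directions, as did all genes tested. Of 20 tested, 7 (35.0%) were lower and 5 higher, and the median was 0.06. Of all genes tested 24.7% were lower and 25.8% higher. CDC7 and its activator DBF4, the kinase that fires replication origins, were at -0.78 and -0.74, TIPIN of the fork protection complex was at -0.94, and the histone gene H2AFX rose by 0.84. Base excision and single-strand break repair had 10 lower (41.7%) and 3 higher of 24 genes. UNG, the uracil glycosylase, had a log2 change of -1.73 ± 0.13 (edgeR adjusted p = 4.48e-08), larger in size than that of any of the 45 genes, and APEX1, the endonuclease of the next step, was at -1.18, whereas POLB, the polymerase that fills the gap, rose by 0.80. Nucleotide excision repair had 8 lower (38.1%) and 2 higher of 21 genes, led by GTF2H3 at -0.64, CCNH at -0.79 and DDB2 at -0.63. Translesion synthesis had 3 lower and 2 higher of 10 genes, shares near those of all genes tested (24.7% lower and 25.8% higher). POLH, a bypass polymerase, was at -0.70 and SHPRH, a ubiquitin ligase, at -0.66. UBE2B, a ubiquitin-conjugating enzyme of that pathway, rose from 64.5 ± 2.38 to 170 ± 9.71 CPM (log2 fold change 1.40 ± 0.09, edgeR adjusted p = 7.26e-09).

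Genes of the cell cycle were also mostly lower with WFA. Of 31 genes of S phase and replication, 22 were lower and 1 higher, with a median log2 fold change of -0.47, and of 25 genes of G2 and mitosis, 19 were lower and 1 higher, with a median of -0.56. CCNE1, the cyclin of S phase entry, was at -1.34, RRM2, which makes deoxynucleotides, at -1.54 and the mitotic cyclin CCNA2 at -0.93, while MCM5 rose by 0.39 and ANLN by 0.43. The S phase list summed to 4164 to 4748 CPM in DMSO and to 2714 to 3187 CPM in WFA. The G2 and mitosis list summed to 4585 to 5763 CPM in DMSO and to 3209 to 3663 CPM in WFA. Neither sum had overlapping groups, and the part of cell cycle phase in the lower repair transcripts was not tested with these counts. The study also examined the cell cycle itself after WFA, and those measurements were not used here.

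**Figure D4:**
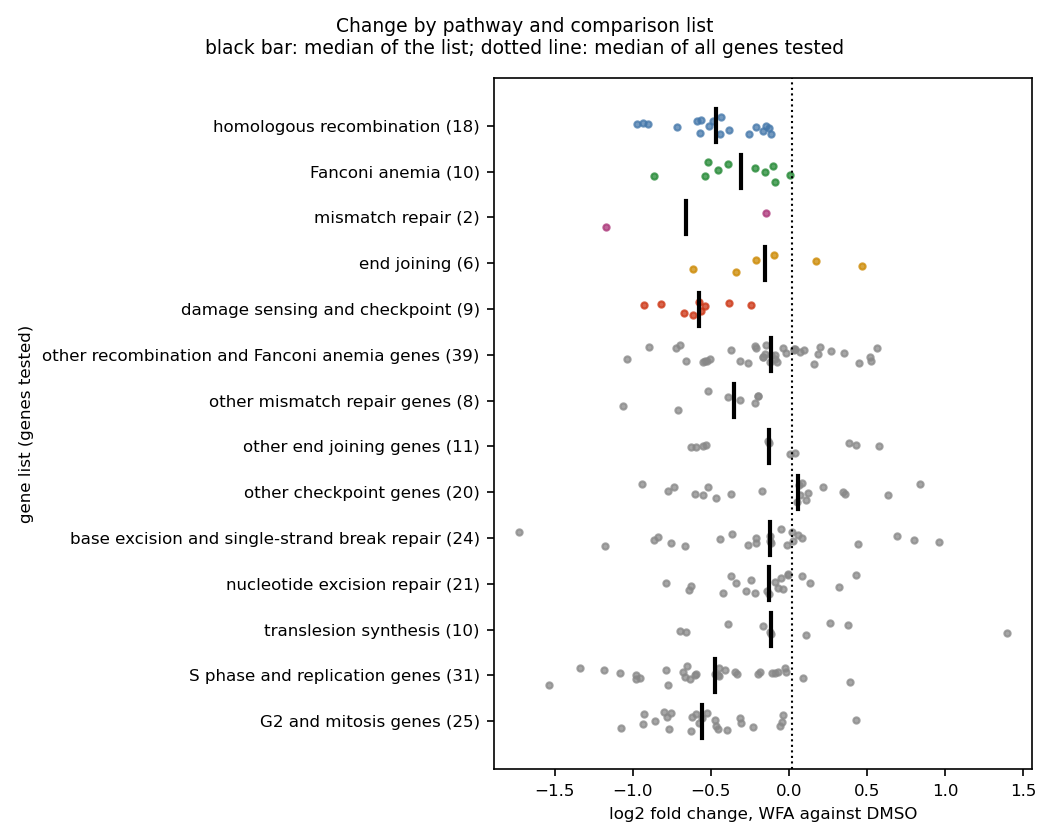
Log2 fold change (x axis, WFA against DMSO) of every tested gene in the 5 repair and checkpoint pathways (coloured points) and in 9 comparison lists (grey points), with the number of genes in brackets, a black bar at each median and a dotted line at the median of all genes tested, 0.02. The medians of the checkpoint genes (-0.58) and recombination genes (-0.47) lie near those of the G2 and mitosis list (-0.56) and the S phase list (-0.47), and the medians of the other checkpoint and excision repair lists lie between -0.13 and 0.06.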

How the data were processed

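Libraries (6, TruSeq RNA v2) were made from RNA of THP1 cells given WFA or DMSO. The authors deposited whole-number counts per gene, which were used here, together with a scaled score per library and columns of their own comparison (a fold ratio, log2 fold changes, p-values and fit diagnostics), which were not used. The submitters' processing notes name bcl2fastq 2.19, Trimmomatic, Bowtie2, Picard, featureCounts, DESeq2 and the build hg38. The annotation and the handling of strand and multiply mapped reads are not given in the sources used here. The test was run in edgeR 4.0.16 (R 4.3.3) with TMM normalization, filterByExpr (minimum count 10) and the quasi-likelihood fit without a block, and p-values were adjusted by Benjamini-Hochberg over the 12854 genes tested. The standard error of a log2 fold change was derived as its absolute value divided by the square root of the F statistic of that test. CPM values use the scaled library sizes. Fits were also run on simulated counts with few changed genes, balanced in direction, and no shared effect of an experiment. That setting is simpler than these data.

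Replicate numbers stand for the 3 independent experiments (a shared date in the labels), and same-numbered libraries deviated together (r = 0.22, 0.33 and 0.25 across genes, against -0.26 to 0.00 for other pairs). Lengths, overlaps and coordinates come from GENCODE 29 (GRCh38). Alternatives were the replicate block, DESeq2 1.42.0, other scalings and filters, a robust fit and leaving out each library. A correction for GC content and transcript length, found for 97.6% of tested genes, was added after seeing the data. The 45 genes and all lists were chosen with earlier results of these data known. A value in every library was given for genes called with a log2 fold change of 0.5 or more in size and for both members of each partner pair, and for some further genes chosen after their values were seen. Of each other list, at most the 3 called genes with the smallest p-values and 1 called gene against the direction of the list are named. Total counts of 11006035 to 13872810 per library set the precision.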

Additional observations from a re-analysis of the deposited data

How the results depend on the processing

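The 45 genes were recomputed under 16 other settings. Between 28 and 34 genes were called lower and 1 higher in each, and 29 of the 31 called genes kept their call throughout. The exceptions were TOPBP1 and XRCC6, given above, and XRCC6 also missed the threshold without the filter on low counts (edgeR adjusted p = 0.0568). With the replicate block 32 genes were lower, the calls of BRCA1 and FANCA being the ones it changed. With a correction for GC content and length, chosen after seeing the data, 33 were lower, XRCC3 among them at -0.36. Using total counts moved the median of the 45 genes to -0.53 and that of the checkpoint genes to -0.66. It gave 10 higher genes among the other repair genes, as did DESeq2, and turned the median of the other checkpoint genes to -0.028. The GC and length correction turned that median to -0.16 (-0.15 with the block) and left 0 S phase genes higher. FANCG, with a change near 0, turned to -0.081 with total counts, -0.0091 with DESeq2 size factors, -0.017 by the DESeq2 test, -0.0097 without the filter, -0.15 with the GC and length correction and -0.14 with that and the block. Leaving out 1 library in turn gave log2 changes of -0.061 to 0.080 for FANCG and -0.27 to 0.021 for BRIP1 (positive without DMSO replicate 1), medians of -0.56 to -0.41 for recombination, -0.66 to -0.49 for checkpoint, -0.19 to 0.010 for other end joining (positive without DMSO replicate 1) and -0.030 to 0.088 for other checkpoint genes (negative without WFA replicate 3), 10 to 15 higher genes among other repair genes (10 without DMSO replicate 2 or WFA replicate 3), and log2 shifts of -0.085 to -0.0095 for MRE11A to RAD50, -0.61 to -0.52 for NBN to RAD50, -0.088 to 0.16 for RAD51C to XRCC3 and -0.24 to -0.012 for FANCD2 to FANCI.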
